A study of Mus musculus with 6 samples.

Results

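The ETS factors other than PU.1 described here are 10 transcription factor genes of bone marrow-derived macrophages (BMDMs), namely Ets2, Etv3, Etv6, Elk1, Elk3, Elk4, Elf1, Elf2, Elf4 and Fli1. They were picked by gene symbol and not by a threshold on a measured value, though with earlier results of these data known, and all 10 were found among the 55335 genes of the count table. All 10 were also among the 15687 genes with enough counts to be tested. The study sequenced total RNA of wild-type (WT) BMDMs from C57BL/6 mice in 6 libraries, 3 from cells given PBS as the control and 3 from cells given lipopolysaccharide (LPS), a cell wall component of Gram-negative bacteria that activates Toll-like receptor 4. Both groups were collected after 1 h, and both had been differentiated from femur and tibia marrow in medium conditioned by L929 cells, which supplies the growth factor CSF1. Nothing in the sources used here says whether the 3 libraries of a group came from separate animals or cultures, so p-values measure the spread between these libraries, which may be technical. The question was how transcript levels of these factors moved in the first hour after LPS.

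ETS proteins share a winged helix-turn-helix DNA-binding domain that reads a GGAA core, and PU.1, encoded by Spi1, is the member that specifies macrophages. Several of the others are end points of the ERK kinase cascade, which LPS activates: ELK1, ELK3 and ELK4 are ternary complex factors that sit beside serum response factor at serum response elements, and ETS2 is activated by ERK phosphorylation. ETV3 and ETV6 are transcriptional repressors, ELF1, ELF2 and ELF4 are regulators of leukocyte genes, and FLI1 acts in hematopoietic, megakaryocytic and endothelial cells.

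After 1 h of LPS, Ets2 rose 15.9-fold and Etv3 rose 2.62-fold, and these were the 2 of 10 ETS factors that passed both criteria of the study, a fold change above 1 in either direction on the log2 scale and a p below 0.05 after adjustment over all tested genes. Over all tested genes, 20.9% passed both criteria, 10.5% upward and 10.4% downward, so the share of the ETS factors was close to that of all genes. None of the 10 passed both criteria downward, and the lowest was Elf2, which decreased by 0.56 on the log2 scale. By adjusted p alone, 8 ETS factors were higher with LPS and 2 (Elf1 and Elf2) were lower, beside 67.7% of all tested genes in either direction, 32.9% higher and 34.9% lower. The higher direction of Elk4, Elf4 and Fli1 turned with libraries scaled by their size only, and that of Elf4 and Fli1 also with upper quartile scaling. The median log2 fold change of the 10 was 0.32, beside -0.01 for all tested genes. In CPM (read counts relative to the library total, scaled by TMM factors), the 3 LPS libraries did not overlap the 3 PBS libraries for 9 of the 10, with Elf4 as the exception. LPS was higher for 7 of the 9 and lower for 2, and 70.5% of all tested genes had groups apart, 33.9% with LPS higher and 36.6% with LPS lower. The labels call the replicate numbers batches, and within each of the 3 batches every one of the 10 moved in the direction given here. The same holds of necessity for the 70.5% of all tested genes with groups apart, so it does not set the 10 apart. In bulk RNA, fewer cells of a type and less RNA per cell cannot be told apart.

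The stretches below come from the RefSeq promoter windows (250 bases before to 50 after each annotated start, build GRCm38.p6). They are shown because each holds the GGAA core that ETS proteins read. Only the Elk3 stretch also holds an NF-κB match, and only the Elf4 stretch an AP-1 match. The stretches belong to the 4 ETS factors with the highest log2 fold changes and to Elf4, whose first window had more GGAA sites than any other window of the 10. Each is written 5′ to 3′ on the strand of the gene, up to the first annotated exon base. For Ets2, whose window lies within an annotated exon, only the single GGAA site with 12 bases on either side is given. Capitals mark matches on either strand to GGAA (TTCC on the strand shown), to TGANTCA, the AP-1 site, or to an NF-κB site.
Ets2, chr16:95702390-95702417, plus strand: cccctcccccggTTCCctccggccctcc
Etv3, chr3:87525328-87525406, plus strand: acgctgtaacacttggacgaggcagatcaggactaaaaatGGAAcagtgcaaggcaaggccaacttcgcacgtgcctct
Elk3, chr10:93311136-93311409, minus strand: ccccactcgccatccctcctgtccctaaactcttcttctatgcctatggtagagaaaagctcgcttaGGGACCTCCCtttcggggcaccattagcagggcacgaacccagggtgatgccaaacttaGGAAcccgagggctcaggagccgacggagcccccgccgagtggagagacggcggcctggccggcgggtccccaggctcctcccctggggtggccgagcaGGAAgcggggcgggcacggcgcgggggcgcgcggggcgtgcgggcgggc
Etv6, chr6:134035450-134035699, plus strand: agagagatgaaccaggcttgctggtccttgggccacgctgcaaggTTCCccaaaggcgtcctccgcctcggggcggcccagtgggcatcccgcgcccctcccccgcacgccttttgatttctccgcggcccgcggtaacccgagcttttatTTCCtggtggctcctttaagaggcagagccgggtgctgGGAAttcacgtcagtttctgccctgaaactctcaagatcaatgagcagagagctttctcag
Elf4, chrX:48463133-48463382, minus strand: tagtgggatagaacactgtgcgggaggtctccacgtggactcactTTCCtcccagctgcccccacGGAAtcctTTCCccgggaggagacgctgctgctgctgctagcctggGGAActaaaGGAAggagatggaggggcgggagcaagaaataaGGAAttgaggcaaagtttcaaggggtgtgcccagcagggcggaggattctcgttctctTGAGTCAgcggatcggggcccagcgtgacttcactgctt

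The promoter table held 14 windows for 9 of the 10 ETS factors. A GGAA core stood in 96% of all 32851 windows of the table, with a median of 3 sites, so its presence sets no promoter apart. Among the ETS factors the lowest number was 1 site, for Ets2, the first window of Elf2 and the second of Elf1 (4.02% of all windows had fewer). The highest were 7 for Etv3 (92% had fewer) and 8 for the first window of Elf4 (96.3% had fewer). Etv6 had 6 sites and Elk3 had 2, and part of the sites of Etv3, Etv6 and Elf4 lie in exon sequence that is not shown. The NF-κB match in capitals in the Elk3 stretch is a motif found in 8.46% of all windows, and the third window of Elk4 was the only other of the 14 to hold one. The TGANTCA match in the Elf4 stretch is a motif of 7.81% of windows, and the second windows of Elf1 and Elf2 held it too. Neither the CArG box that serum response factor reads (1.63% of all windows) nor the cyclic AMP response element TGACGTCA (1.79%) matched in any of the 14. These counts describe letters in the windows and not binding.

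The 6 libraries held 37787611 to 41516330 counts, with TMM factors of 1.15 for the PBS libraries and 0.864 to 0.872 for the LPS libraries. The macrophage identity of the cells was plain in the counts: the summed level of 8 macrophage markers was 29900 to 31200 CPM with PBS and 35900 to 36200 CPM with LPS, with Cd14 as the 1 marker past both criteria. Lyz2 made up most of the sum (23272 CPM with PBS, 24224 with LPS), and Cd14 went from 398 to 3623 CPM. By adjusted p, 6 were higher, Fcgr1 was lower (log2 fold change -0.48) and Mertk (-0.04) missed the threshold. Of all tested genes, 32.9% were higher and 34.9% lower. Summed markers of other cells were low and for these sets higher with LPS, from 36.8 to 39.2 CPM to 49.3 to 51.4 CPM for 7 neutrophil markers and from 21.2 to 23.0 CPM to 31.6 to 31.9 CPM for 6 T cell markers, of which Cd4 made up nearly all. The neutrophil marker Ly6g had at most 3 counts and Cd3d, Cd3e, Cd3g and Cd8a at most 9 in any library. Markers of B cells (5 genes) summed to 2.88 to 3.17 CPM with PBS and 2.88 to 3.64 CPM with LPS, and those of fibroblasts (4 genes) to 11.3 to 12.2 and 13.1 to 14.3 CPM. The part of such cells in the results was not tested.

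**Figure D1:**
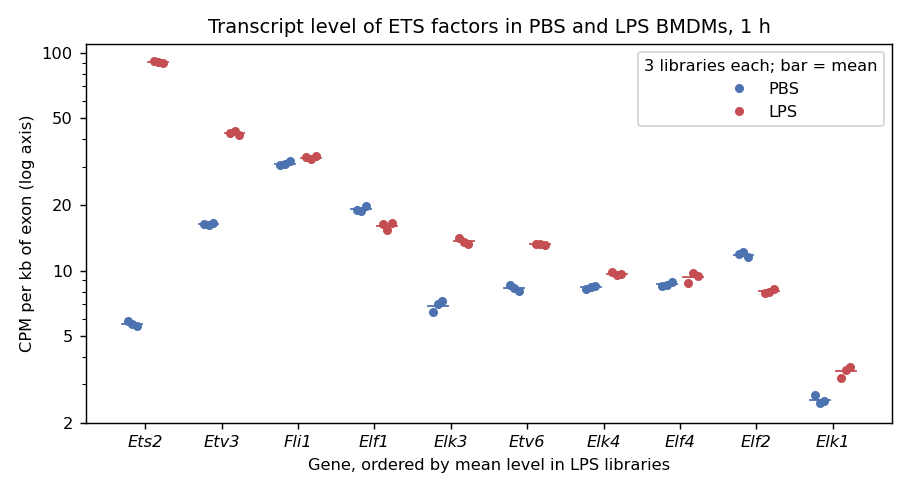
Transcript level of each ETS factor in CPM per kb of merged exon (vertical log axis), with 1 point for each of 3 PBS (blue) and 3 LPS (red) libraries and a bar at the mean, ordered by the mean LPS level. Ets2 moved from 5.69 CPM per kb, ninth of 10 with PBS, to 90.8 CPM per kb, first with LPS, and Elk1 was last in both groups.

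Ets2, an ERK-activated factor that controls protease and cytokine genes in macrophages, lies at chr16:95702075-95721051 on the plus strand of GRCm38 (ENSMUSG00000022895.16), and its exons overlap no other annotated gene. It had 1618, 1478 and 1478 counts in the PBS libraries and 17741, 17139 and 17691 counts in the LPS libraries. The lowest LPS library thus held far more Ets2 counts than the highest PBS library, and the 3 libraries within a group lay close together. Its level was 32.9 ± 0.988 CPM (SD, n = 3) with PBS and 525 ± 4.45 CPM with LPS. This gave a log2 fold change of 3.99 with a standard error (SE) of 0.04 (adjusted p = 6.32e-23, from the quasi-likelihood test of edgeR as throughout). Of all tested genes, 98.1% had a lower log2 fold change. Leaving out any 1 library kept it between 3.97 and 4.02. Erg, the ETS gene next to Ets2 on chromosome 16 with a gap of 115481 bp, had 1, 5 and 8 counts with PBS and 5, 7 and 8 with LPS.

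By centred log2 CPM over the 6 libraries, the genes with the smallest Euclidean distance to Ets2 were Rasgef1b (distance 0.111), Gm19241 (0.12) and Traf1 (0.123). Rasgef1b went from 132 ± 1.80 CPM to 2202 ± 38.5 CPM, on the log2 scale a fold change of 4.06. Traf1, which encodes an adaptor of TNF receptors, went from 20.2 ± 0.674 to 322 ± 4.47 CPM. Gm19241 was far lower, at 0.0432 ± 0.00114 CPM with PBS and 1.48 ± 0.0513 CPM with LPS. Gm19241 is near the counting floor with PBS, so its likeness to Ets2 rests on few reads. With 2 groups of 3 libraries, likeness mostly restates the size of the change, and ranking by Pearson correlation named 0 of the same genes.

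Etv3, a repressor linked to growth arrest of macrophages, lies at chr3:87525407-87540156 on the plus strand (ENSMUSG00000003382.18) and was the other ETS factor past both criteria. Its counts were 7974, 7535 and 7834 with PBS and 14713, 14653 and 14685 with LPS. All 3 LPS libraries stood apart from the PBS libraries by more than the whole spread within either group. Its level was 168 ± 1.57 CPM with PBS and 439.6 ± 8.79 CPM with LPS, a log2 fold change of 1.39 (SE 0.03, edgeR adjusted p = 3.89e-17). With libraries scaled by size alone this value was 0.98, just under the fold criterion, so 1 of 10 ETS factors was then past both criteria. Etv3 also has the longest merged exons of the 10, 10274 bp, and per kb it stood below Fli1 and Elf1 with PBS. Of all stretches of one read length in its transcripts, 0.943% also occur in the neighbouring gene Etv3l, which is not among the genes of the count table.

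Etv6, a repressor needed for hematopoiesis, lies at chr6:134035700-134270158 on the plus strand (ENSMUSG00000030199.16) and is the longest of the 10 genes, at 234459 bp. Its counts were 2435, 2246 and 2217 with PBS and 2648, 2590 and 2656 with LPS. The LPS libraries were above the PBS libraries in every case, already in raw counts. Its level rose from 49.6 ± 1.55 to 78.8 ± 0.667 CPM, a log2 fold change of 0.67 (SE 0.04, edgeR adjusted p = 2.17e-11).

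Within the introns of Etv6 lie Gm43982 and Gm43984, single-exon genes on the same strand of the annotation class TEC, which holds candidate transcripts awaiting experimental evidence, 37.65 and 48.9 kb from the Etv6 start. Gm43982 had 133, 103 and 120 counts with PBS and 786, 726 and 771 with LPS, a log2 fold change of 3.15 (SE 0.08, edgeR adjusted p = 2.44e-16). Gm43984 had 116, 97 and 119 counts with PBS and 732, 753 and 830 with LPS, a log2 fold change of 3.27 (SE 0.09, edgeR adjusted p = 2.61e-16). Both intronic genes thus changed far more than the Etv6 row itself. For every 1000 Etv6 counts, the intronic pair had 102.3, 89.05 and 107.8 counts in the PBS libraries and 573.3, 571.0 and 602.8 in the LPS libraries. This ratio, which no scaling of libraries can move, was 5.84-fold higher with LPS (exact two-sided permutation p = 0.1, the smallest that 3 against 3 libraries allow). Reads of unspliced Etv6 RNA and of separate transcripts cannot be told apart in these intervals.

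**Figure D2:**
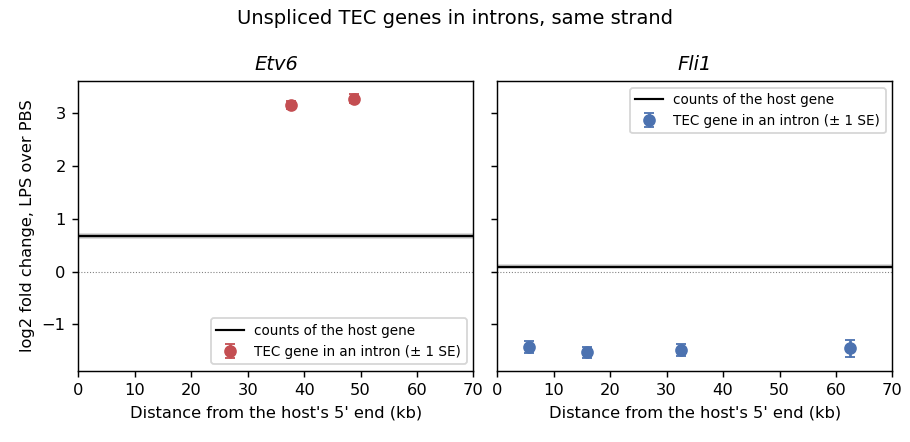
Log2 fold change, LPS over PBS (vertical axis), of TEC genes on the same strand within introns of Etv6 (red) and Fli1 (blue) against their distance from the start of the host gene in kb, with bars of 1 SE; the black line with its band is the host gene's own value ± 1 SE. The pair in Etv6 lay above the host line at 0.67 and all 4 in Fli1 lay below the host line at 0.09.

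The ternary complex factors were led by Elk3, which acts as a repressor until ERK phosphorylates it. Elk3 lies at chr10:93247414-93311135 on the minus strand (ENSMUSG00000008398.15) and had 1401, 1444 and 1513 counts with PBS and 2151, 2010 and 2043 with LPS. The groups were well apart in raw counts. Its level went from 31.4 ± 1.75 to 61.9 ± 2.05 CPM, a log2 fold change of 0.98 (SE 0.05, edgeR adjusted p = 2.07e-12), the nearest of all 10 to the fold criterion from below. Without PBS replicate 3 the value was 1.01 and Elk3 passed both criteria, which then made 3 of 10.

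Cdk17, which encodes a cyclin-dependent kinase, shares 316 bp (6.95% of Elk3's merged exons) with Elk3 on the opposite strand. Cdk17 itself had 2151, 1985 and 2176 counts with PBS and 3329, 3123 and 3516 with LPS. Cdk17 rose by a log2 fold change of 1.13 (SE 0.04, edgeR adjusted p = 2.98e-14). Of all stretches of one read length in Elk3 transcripts, 4.74% also occur in a Cdk17 transcript on either strand. The strand setting of the counting is not given in the sources used here, so reads of both genes in this stretch cannot be told apart.

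Elk1 (ENSMUSG00000009406.13, chrX:20933395-20950608, minus strand), the founding ternary complex factor, was the lowest of the 10 in both groups. Its counts were 690, 600 and 624 with PBS and 581, 613 and 662 with LPS. Raw counts overlapped between the groups, and only the scaled levels stood apart, at 13.8 ± 0.640 CPM with PBS and 18.5 ± 1.09 CPM with LPS. The log2 fold change was 0.43 (SE 0.06, edgeR adjusted p = 1.28e-05), and 0.02 with libraries scaled by size alone. Uxt, which shares 76 bp with Elk1 on the same strand, had a log2 fold change of 0.04 (SE 0.08, edgeR adjusted p = 0.687).

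Elk4 (ENSMUSG00000026436.15, chr1:132007607-132032612, plus strand), also called SAP-1, had 2498, 2443 and 2505 counts with PBS and 2107, 1992 and 2100 with LPS. Raw counts of Elk4 were thus lower in every LPS library, while its scaled levels were higher in every one: 52.5, 54.1 and 54.3 CPM with PBS and 62.8, 61.0 and 61.7 CPM with LPS. Its log2 fold change was 0.21 (SE 0.04, edgeR adjusted p = 8.83e-05), and it turned to -0.20 with libraries scaled by size alone. Elk4 shares 84 bp of exon with Mfsd4a on the opposite strand, which had at most 3 counts in any library, and 104 bp with Gm29103, which had 0 counts in all 6.

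Elf1 and Elf2 were the only ETS factors lower with LPS by adjusted p. Elf1 (ENSMUSG00000036461.16, chr14:79481194-79582494, plus strand), a regulator of lymphoid and myeloid genes, had 6102, 5716 and 6176 counts with PBS and 3708, 3362 and 3796 with LPS. Its level fell from 129.5 ± 3.85 to 108 ± 4.65 CPM, and the log2 fold change was -0.26 (SE 0.04, edgeR adjusted p = 9.96e-06). Wbp4, which shares 327 bp with Elf1 on the opposite strand (4.85% of Elf1's exons), had a log2 fold change of 0.05 (SE 0.04, edgeR adjusted p = 0.337).

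Elf2 (ENSMUSG00000037174.18, chr3:51252720-51340663, minus strand), which is also known as NERF, had 5394, 5227 and 5073 counts with PBS and 2538, 2496 and 2669 with LPS. Every LPS library lay under every PBS library for both Elf1 and Elf2, in raw counts and in CPM. The level of Elf2 fell from 113 ± 2.89 to 76.8 ± 1.43 CPM, a log2 fold change of -0.56 (SE 0.04, edgeR adjusted p = 1.32e-10), and 20.0% of tested genes had a lower value. The genes with the pattern most like that of Elf2, by the distance used for Ets2, included Thumpd1 (distance 0.0543, log2 fold change -0.56) and Nfam1 (0.0622, -0.57). The 371 bp that Elf2 shares with 4930577N17Rik hold few reads of the latter, which had 29, 17 and 11 counts with PBS and 4, 16 and 6 with LPS.

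Elf4 (ENSMUSG00000031103.12, chrX:48411046-48463132, minus strand), also known as MEF, was the ETS factor whose groups overlapped. Its counts were 2493, 2386 and 2506 with PBS and 1808, 1954 and 1968 with LPS. In CPM these were 52.4, 52.8 and 54.3 with PBS and 53.9, 59.9 and 57.8 with LPS, so that LPS replicate 1 lay within the range of the PBS libraries. Its log2 fold change of 0.11 (SE 0.04, edgeR adjusted p = 0.0378) missed the threshold when any of PBS replicates 1 and 2 or LPS replicates 2 and 3 was left out, with values of 0.07 to 0.10, and it turned to -0.30 with libraries scaled by size alone.

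Fli1 (ENSMUSG00000016087.13, chr9:32422204-32542861, minus strand) had the highest level of the 10 per kb of exon with PBS. Its counts were 5060, 4830 and 5104 with PBS and 3868, 3691 and 3971 with LPS. As for Elk4, raw counts were lower in every LPS library while scaled levels were higher: 106, 107 and 111 CPM with PBS and 115, 113 and 117 CPM with LPS. The log2 fold change of 0.09 (SE 0.03, edgeR adjusted p = 0.0225) missed the threshold without PBS replicate 1, PBS replicate 2, LPS replicate 1 or LPS replicate 3 (adjusted p 0.0587 to 0.0951), and it turned to -0.31 with libraries scaled by size alone.

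FLI1 is best known from megakaryocytes and endothelial cells, and 3 of 4 markers of the former and 3 of 5 of the latter were tested. By adjusted p, 2 of each 3 were higher with LPS and none was lower, beside 32.9% higher and 34.9% lower of all tested genes. The summed level of 4 megakaryocyte markers was 15.2 to 17.3 CPM with PBS and 29.3 to 30.5 CPM with LPS. Pf4, the platelet chemokine, made up most of it, with a log2 fold change of 1.01, while Gp9 had 18, 22 and 14 counts with PBS and 8, 10 and 4 with LPS and Gp1ba had at most 7 counts in any library. The 5 endothelial markers summed to 33.8 to 37.0 CPM with PBS and 43.2 to 46.6 CPM with LPS, mostly from Kdr. Cdh5, which encodes VE-cadherin, had 37, 38 and 27 counts with PBS and 98, 81 and 85 with LPS, a log2 fold change of 1.84, while Tek had at most 6 counts. Their part in the Fli1 result was not tested. Ets1, whose gene neighbours Fli1 on chromosome 9 across a gap of 93359 bp, is described with the other ETS genes.

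In contrast to its own row, 4 TEC genes within introns of Fli1 on the same strand fell. Gm37474 had 383, 358 and 374 counts with PBS and 107, 82 and 90 with LPS, a log2 fold change of -1.53 (SE 0.10, edgeR adjusted p = 3.43e-10). Gm38346 had 390, 353 and 370 counts with PBS and 95, 75 and 115 with LPS. The other two, Gm37082 and Gm38292, behaved likewise, so that the 4 values ran from -1.53 to -1.43 at 5.684 to 62.48 kb from the Fli1 start. For every 1000 Fli1 counts, the 4 intronic genes together had 242.9, 232.3 and 233.7 counts with PBS and 81.18, 77.76 and 78.82 with LPS. This ratio was 2.98-fold lower with LPS (exact two-sided permutation p = 0.1, the smallest possible). The snRNA gene Gm22060, also within an intron of Fli1, had 38, 26 and 28 counts with PBS and 8, 6 and 11 with LPS. In Elf2, the only other of the 10 with a TEC gene on its own strand within an intron, Gm37399 had a log2 fold change of -0.42 (SE 0.20, edgeR adjusted p = 0.0795). Unspliced Fli1 RNA and separate transcripts again cannot be told apart.

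Levels can be compared between genes only per length, here as CPM per kb of merged exon. With PBS the order was Fli1 (31.0 ± 0.674), Elf1 (19.2 ± 0.571), Etv3 (16.4 ± 0.153), Elf2 (11.8 ± 0.302), Elf4 (8.65 ± 0.166), Elk4 (8.37 ± 0.156), Etv6 (8.30 ± 0.258), Elk3 (6.90 ± 0.386), Ets2 (5.69 ± 0.171) and Elk1 (2.56 ± 0.119). Among neighbours in this order, the libraries of Elk4 and Etv6 overlapped and the other pairs did not. With LPS it was Ets2 (90.8 ± 0.770), Etv3 (42.8 ± 0.856), Fli1 (33.0 ± 0.519), Elf1 (16.1 ± 0.690), Elk3 (13.6 ± 0.451), Etv6 (13.2 ± 0.112), Elk4 (9.65 ± 0.138), Elf4 (9.30 ± 0.495), Elf2 (8.04 ± 0.150) and Elk1 (3.44 ± 0.203). Here Elk3 and Etv6 overlapped, as did Elk4 and Elf4. By merged exon length, Ets2 thus went from ninth to first place, and Elf2 from rank 4 to rank 9. Ranks of genes close in level rest on the length chosen. Ets2 has 5780 bp of merged exon and a longest transcript of 3890 bp, and Elf2 has 9563 and 5919 bp. The order per kb of longest transcript is not given here.

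The make-up of the ETS transcripts, as each gene's share of their summed level per kb, does not depend on the scaling of libraries. It does rest on the length chosen, here merged exons, and shares by longest transcript are not given here. Ets2 made up 4.79% ± 0.188 of the sum with PBS and 37.8% ± 0.202 with LPS. Etv3 went from 13.8% ± 0.0501 to 17.8% ± 0.338, so that both together made up 18.6% ± 0.228 with PBS and 55.7% ± 0.460 with LPS. Fli1 had the largest share with PBS, 26.1% ± 0.295, and 13.8% ± 0.238 with LPS. Elf1, Elf2 and Elf4 together went from 33.4% ± 0.0336 to 13.9% ± 0.307. The share of Elk3 stayed within its spread, at 5.81% ± 0.281 with PBS and 5.67% ± 0.170 with LPS (exact two-sided permutation p = 0.6). For the other 9 the groups did not overlap, 2 with a higher and 7 with a lower share, each at the smallest exact p of 0.1. Within the ternary complex factors, Elk3 went from 38.7% ± 1.24 to 51.0% ± 1.04 of their sum. Shares are bound together, since a gain of 1 gene lowers all others.

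**Figure D3:**
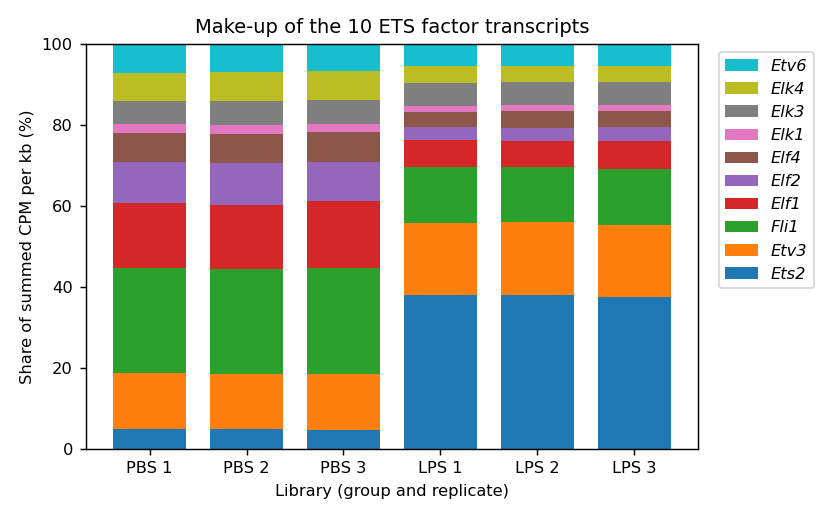
Share of each ETS factor in the summed CPM per kb of the 10 (vertical axis, %), stacked for each of the 6 libraries. The Ets2 and Etv3 blocks at the base filled 18.4% to 18.8% in the PBS libraries and 55.2% to 56.1% in the LPS libraries, while the Fli1 block narrowed from a mean of 26.1% to 13.8%.

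The summed level of the 10 was 119 ± 1.23 CPM per kb with PBS and 239.8 ± 0.759 CPM per kb with LPS. Unlike the shares, this sum depends on the scaling, here by TMM factors. Most of its rise came from Ets2 (5.69 to 90.8 CPM per kb) and Etv3 (16.4 to 42.8 CPM per kb). Spi1, the gene of PU.1, had 74.9 ± 1.42 CPM per kb with PBS and 82.0 ± 3.79 with LPS. Spi1 alone thus amounted to 63.1% ± 1.83 of the sum of the 10 with PBS and 34.2% ± 1.60 with LPS (exact two-sided permutation p = 0.1, the smallest possible). Its own log2 fold change was 0.13 (SE 0.04, edgeR adjusted p = 0.0045), which turned to -0.28 with libraries scaled by size alone. Of the summed level of all ETS family genes, the 10 held 54.7% ± 0.480 with PBS and 68.6% ± 0.776 with LPS.

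Which of the small changes count as higher or lower rested on the scaling. TMM factors raised CPM in the LPS libraries relative to library size, and without them the median over all tested genes moved from -0.01 to -0.42 on the log2 scale, with 1213 genes then past both criteria upward and 2964 downward in place of 1653 and 1624. On that scale Ets2 was at 3.59, Etv3 at 0.98, Elk3 at 0.58, Etv6 at 0.26 and Elk1 at 0.02. Elk4 (-0.20), Elf4 (-0.30) and Fli1 (-0.31) were then below 0, and Elf1 (-0.66) and Elf2 (-0.96) lay further below it. Upper quartile scaling left Elk4 at 0.06 and put Elf4 at -0.04 and Fli1 at -0.05. A change of scaling shifts all genes by about the same amount.

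**Figure D4:**
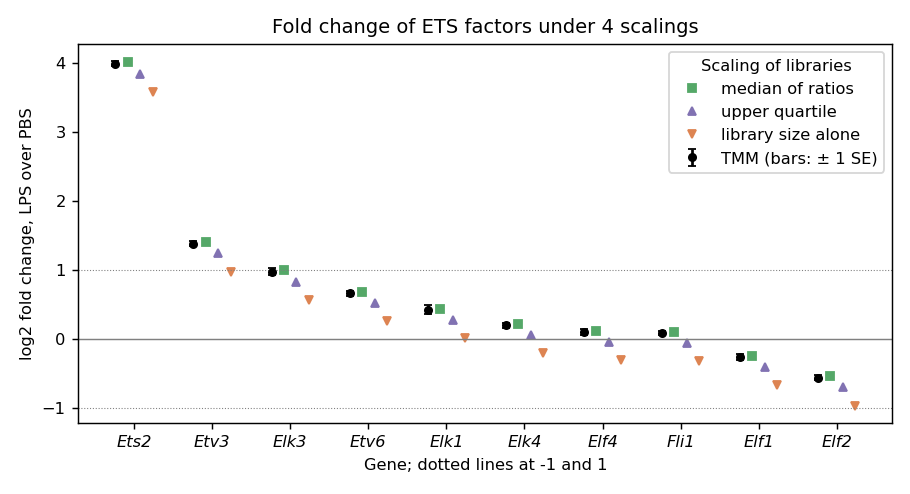
Log2 fold change, LPS over PBS (vertical axis), of each ETS factor under 4 scalings of the libraries, with bars of 1 SE on the TMM values and dotted lines at -1 and 1. Ets2, Etv3, Elk3, Etv6 and Elk1 stayed above 0 and Elf1 and Elf2 below it under all 4. Elk4, Elf4 and Fli1 lay below 0 with library size alone, and Elf4 and Fli1 also with upper quartile scaling.

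Of 16 other ETS genes, Spi1 included, 8 had enough counts to be tested. Past both criteria, 2 rose and 0 fell, and by adjusted p alone 5 were higher, 1 was lower and 2 missed the threshold, with a median log2 fold change of 0.35. With libraries scaled by size alone it was 1 up and 1 down, since Spib came to 0.76 and Erf to -1.07. Under TMM scaling, 10.5% of all tested genes passed both criteria upward and 10.4% downward. By adjusted p alone, 32.9% of all tested genes were higher and 34.9% lower. Spic, which specifies red pulp macrophages, had 70, 62 and 49 counts with PBS and 106, 138 and 143 with LPS, a log2 fold change of 1.57 (SE 0.16, edgeR adjusted p = 9.05e-08). Spib, a PU.1 relative of B cells and plasmacytoid dendritic cells, had 55, 44 and 39 counts with PBS and 77, 80 and 66 with LPS, a log2 fold change of 1.16 (SE 0.18, edgeR adjusted p = 1.32e-05). Both were low, with Spic going from 1.30 ± 0.213 to 3.86 ± 0.610 CPM and Spib from 0.991 ± 0.156 to 2.23 ± 0.262 CPM. Gabpa, which forms GABP with a beta subunit, had a log2 fold change of 0.52 (edgeR adjusted p = 1.98e-08) and Ets1 one of 0.54 (3.61e-07). Erf, a repressor controlled by ERK, fell by 0.66 on the log2 scale (edgeR adjusted p = 2.53e-06). Etv1 was at 0.18 (edgeR adjusted p = 0.11) and Etv5 at -0.02 (0.767). Of the untested genes, Fev, Etv2 and Elf5 had 0 counts in all 6 libraries, which allows up to 3 counts in each, and Erg, Etv4, Elf3 and Spdef had at most 8. Ehf had 1, 0 and 1 counts with PBS and 4, 15 and 9 with LPS.

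Among 16 kinases and inhibitors of the ERK cascade upstream of ETS2 and the ternary complex factors, the large changes lay in the inhibitors. Past both criteria, 4 rose and 1 fell, and by adjusted p alone 8 were higher, 4 lower and 4 missed the threshold, with a median log2 fold change of 0.15. Beside this list and those below stand 20.9% of all tested genes past both criteria, and 32.9% higher and 34.9% lower by adjusted p alone. Dusp5, a nuclear phosphatase of ERK, had 132, 154 and 154 counts with PBS and 18634, 18465 and 17972 with LPS, a log2 fold change of 7.44 (SE 0.06, edgeR adjusted p = 7.34e-24). Dusp4, another nuclear phosphatase, was at 2.81, and the receptor signalling inhibitors Spry2 and Spred1 were at 1.79 and 1.26. Dusp6, the cytoplasmic ERK phosphatase, went the other way, from 1983, 1828 and 1937 counts to 454, 420 and 429, a log2 fold change of -1.67 (SE 0.05, edgeR adjusted p = 2.43e-15). No kinase of the list passed both criteria.

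Of 12 immediate early genes with serum response elements, where ternary complex factors act, 11 were tested. Past both criteria 9 rose and 0 fell, and all 11 were higher by adjusted p, with a median log2 fold change of 2.93. The highest were Fosb, an AP-1 subunit, with 18, 44 and 41 counts with PBS and 16283, 15515 and 15376 with LPS (log2 fold change 9.30), the nuclear receptor Nr4a1 (7.33) and the AP-1 subunit Junb, which went from 160.5 ± 4.74 to 2561 ± 98.8 CPM. The lowest of the 9 were the matricellular gene Cyr61 (2.08), Fos (2.40) and Ier2 (2.62). Srf, which encodes serum response factor itself, had 0.61 and Mcl1, an inhibitor of apoptosis, had 0.87, both past the adjusted p alone. Egr4 had 0 counts in the 3 PBS libraries and 25, 14 and 9 with LPS, at least 7.4-fold higher with a floor of 3 counts per PBS library.

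Of 16 partners and corepressors, all were tested. Past both criteria 1 rose and 1 fell, and by adjusted p alone 9 were higher and 7 lower, with a median log2 fold change of 0.15. The gene that rose was Gabpb1, the beta subunit that joins GABPA, at 1.46 (SE 0.05, edgeR adjusted p = 2.34e-14). The gene that fell was Ddx20, a helicase that binds ETV3 and takes part in its repression. Ddx20 had 925, 926 and 883 counts with PBS and 276, 276 and 299 with LPS, a log2 fold change of -1.21 (SE 0.07, edgeR adjusted p = 1.30e-11), while Etv3 itself rose.

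Of 10 textbook target genes of ETS proteins, 4 rose past both criteria and 0 fell, and by adjusted p alone 8 were higher and 2 lower, with a median log2 fold change of 0.89. The 4 were Myc (3.58), the urokinase gene Plau (2.31), Klf4 (2.17) and the integrin gene Itgal (1.53). Plau, a known ETS2 target, went from 92.5 ± 3.25 to 458 ± 20.1 CPM. Csf1r, the CSF1 receptor gene that PU.1 controls, had a log2 fold change of 0.35, while Mmp9 (-0.13) and Ccnd1 (-0.45) were the 2 lower ones. In the 4 pathway lists as in the ETS family, these are counts with no test of a list, beside 20.9% of all tested genes past both criteria and 67.7% by adjusted p alone, 32.9% higher and 34.9% lower.

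**Figure D5:**
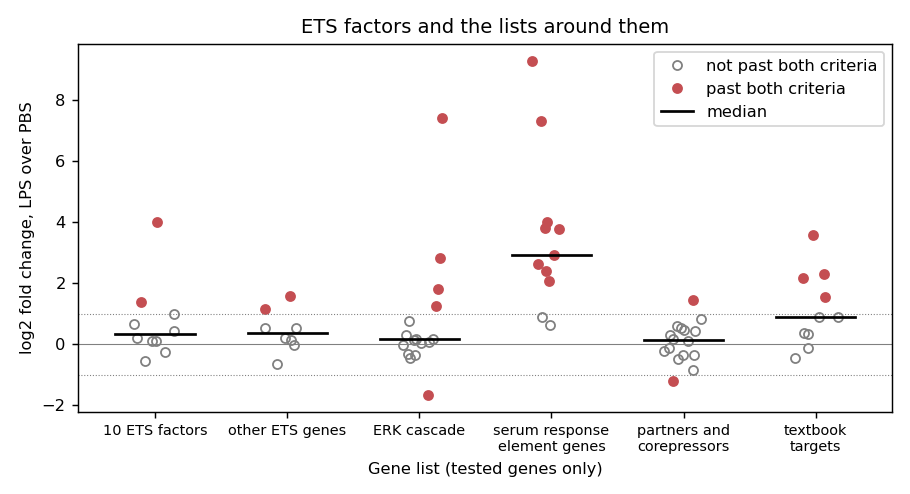
Log2 fold change, LPS over PBS (vertical axis), of every tested gene in the ETS factors and 5 related lists, with filled points for genes past both criteria, open points for the rest, a bar at each list's median and dotted lines at -1 and 1. The serum response element list has the highest median, 2.93, and the ETS factors one of 0.32 with Ets2 far above the others.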

How the data were processed

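Total RNA of 6 BMDM libraries (3 PBS, 3 LPS, 1 h) had been prepared with a stranded kit. The authors aligned the reads with HISAT2 2.1.0 to GRCm38 (mm10), used SAMtools 1.17 and FastQC 0.11.9, and deposited raw read counts per gene from featureCounts 2.0.0, without normalization. The annotation release, strand setting and treatment of reads with several matches are not given in the sources used here. Symbols and coordinates came from GENCODE M21 (55154 of 55335 identifiers matched with the version removed), and promoter windows from RefSeq. Protein sequences were not used here.

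Groups were taken from the labels. The counts were filtered with filterByExpr, scaled by TMM and tested with edgeR 4.0.16 (R 4.3.3), glmQLFit and glmQLFTest, with no covariate and p-values adjusted by Benjamini-Hochberg over the 15687 genes tested. The F statistic of that test gave the standard errors. Calls needed a log2 fold change beyond 1 in either direction at an adjusted p below 0.05. Shares and ratios were compared by exact permutation over all 6 libraries, which does not use the batch numbers. It cannot give a p below 0.1 with 3 libraries per group. The function was checked on simulated counts. The floor was 3 counts per library and covers counting error only, since reads carry no molecular identifiers. At 37787611 to 41516330 counts per library, 1 ETS factor fell under 1000 counts (Elk1), and the common biological coefficient of variation was 0.0426.

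The labels number the replicates of both groups 1 to 3 and call these numbers batches, so they pair the libraries. In same-numbered libraries, the deviations from the group means correlated at r = -0.0139, 0.0822 and 0.0387. Between libraries of different numbers, r ran from -0.0817 to 0.0446. Replicates of a group differed by more than sampling noise, and none was counted as a duplicate.

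Named genes were the 10 ETS factors, the other ETS genes, the 3 highest and 3 lowest called genes of each pathway list, genes overlapping an ETS factor and the 3 genes most like Ets2 and Elf2, of which 1 is not reported here. The members and lists were chosen with earlier results of these data known. Genes named besides these (Srf, Mcl1, Egr4, Csf1r, Mmp9, Ccnd1 and the cell markers) were chosen after their values were seen. For Mkl1, Mkl2 and Cyr61 the annotation has newer symbols. Alternatives were other scalings, filters, DESeq2 1.42.0, limma voom (limma 3.58.1), a replicate block, a test against the fold threshold, and leaving out each library or the 10 most abundant genes. For shares they were the longest transcript and a pool of all ETS genes.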

Additional observations from a re-analysis of the deposited data

How the results depend on the processing

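With the replicate block, 2 ETS factors and 3276 genes passed both criteria, beside 2 and 3277 without it, and the block changed no call of an ETS factor. Over all genes, requiring 10 counts in every library left 2168 calls, and leaving out 1 library gave 3370 to 3420. With library size alone 1 ETS factor passed both criteria, and leaving out 1 library gave 2 or 3, where the third was Elk3 without PBS replicate 3. DESeq2, limma voom and the test against a log2 fold change of 1 each called 2. Library size alone turned the log2 fold changes of Elf4 (-0.30), Elk4 (-0.20), Fli1 (-0.31), Etv1 (-0.22), Spi1 (-0.28), Wbp4 (-0.36) and Uxt (-0.36). Upper quartile scaling turned Elf4 (-0.04), Fli1 (-0.05), Spi1 (-0.01), Wbp4 (-0.09) and Uxt (-0.10). Etv5 came to 0.00, just above 0, with DESeq2's size factors, with DESeq2 and without PBS replicate 1. Taking all ETS family genes as the pool, the share of Elk3 changed by 0.714 percentage points in place of -0.133, that of Etv6 by -0.0558 in place of -1.49, that of Fli1 by -4.82 in place of -12.3, that of Elf1 by -4.25 in place of -9.47 and that of Ets2 by 23.3 in place of 33.0. The changes of Elf2 (-3.14 in place of -6.59), Elf4 (-1.32 in place of -3.40), Elk1 (-0.194 in place of -0.719) and Elk4 (-1.09 in place of -3.02) were smaller in size. In that pool 3 shares were higher and 6 lower without overlap, in place of 2 and 7. Elf4 and Fli1 missed an adjusted p of 0.05 with either other filter, with adjusted p-values of 0.0789 and 0.0554 at 10 counts in every library. Shares in the pool of all ETS genes divide by a larger sum, 217.2 in place of 118.8 CPM per kb with PBS and 349.8 in place of 239.8 with LPS. The cause of the other shifts was not tested. Elk1 was the only ETS factor under 1000 counts per library, and Spib and Spic rest on fewer counts still.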
